A study of Homo sapiens with 4 samples.

Results

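Genes for ribosome production and for the RNA polymerases that make ribosomal, transfer and other small RNAs were compared between HCT116 cells that lack type II topoisomerases, the enzymes that relieve DNA supercoils and tangles, and cells that have them. The gene set was chosen by symbol: the subunits named POLR1A to POLR1H and POLR3A to POLR3K, the numbered UTP, NOP, NOL and RRP genes, the NOC2L, NOC3L and NOC4L genes, the TFIIIC genes named GTF3C, TAF1A to TAF1D, BRF1 and BRF2, IMP3 and IMP4, and the single genes UBTF, RRN3, WDR12, WDR43, WDR75, BOP1, PES1, FBL, NCL, NPM1, DKC1, BMS1 and MPHOSPH10. The rule uses names only and no measured value. It picked 85 protein-coding genes of the 60656 identifiers in the files, and 81 of them held enough reads to be tested.

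The assay was TTchem-seq, in which RNA made during a short pulse of 4-thiouridine is fragmented, purified and sequenced, in 2 DKO and 2 WT libraries of HCT116, a human colorectal carcinoma line. The DKO cells carried both TOP2A alleles fused to a mini auxin-inducible degron (mAID), were TOP2B -/- after CRISPR/Cas9 deletion, and received 500 µM of the auxin indole-3-acetic acid for 8 h, which removes the tagged TOP2A protein. The WT libraries are labelled wildtype, and the sources used here do not say whether these cells carried the tagged TOP2A, nor do they record auxin for them. Both groups were arrested in G1 for 28 h by palbociclib (2 µM), which inhibits CDK4 and CDK6, before the pulse, which lasted 30 min at 1 mM 4-thiouridine. Loss of the enzymes, auxin itself and differences between the lines therefore cannot be told apart, and the number of clones behind each group is not given in the sources used here. Nothing in the labels says that the libraries of a group came from separate cultures, so the p-values measure the spread between these libraries, which may be technical.

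Ribosomes are assembled in the nucleolus, where RNA polymerase I (Pol I) transcribes the ribosomal DNA repeats into a long precursor and RNA polymerase III (Pol III) supplies the short ribosomal RNA from elsewhere in the genome, together with transfer RNAs and other small RNAs. Small nucleolar ribonucleoproteins (snoRNPs) modify the precursor, and the small subunit processome and the large subunit assembly factors cut, fold and export it as 40S and 60S particles. The protein-coding genes of this machinery are themselves transcribed by RNA polymerase II, many from promoters bound by MYC at the letters CACGTG, known as the E-box, and it is this transcription that the libraries report.

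The 4 libraries held 51142867 to 53777749 counted reads, and the 85 genes took 0.717% to 0.75% of them. The libraries of a group differed beyond counting error (chi-square per degree of freedom 4.98 in DKO and 4.33 in WT). TOP2A transcription was higher in DKO, at 165 and 168 CPM (counts scaled to 1000000 per library) against 126 and 122 in WT (log2 fold change 0.42 ± 0.05 SE, adjusted p = 3.46e-15), and TOP2B reads were at 147 and 150 CPM against 140 and 143 (0.07, adjusted p = 0.223). The degron acts on the protein and the position of the TOP2B deletion is not given in the sources used here, so neither gene's reads check the labels. Of 10 colon epithelial markers 7 were tested: CDH1 (-0.37 ± 0.05, adjusted p = 5.96e-11), KRT8 (-0.21) and KRT18 (-0.19) were lower in DKO with all 4 libraries, the direction of most calls of the gene set, and EPCAM, KRT19, CDX2 and GPA33 did not pass. VIL1 (4 to 11 reads per library) and CDX1 (0 to 2) were near 0 and CEACAM5 was at 0. The part of these markers in the results was not tested. The summed reads of 6 immune markers were 11 to 33 per library, those of 6 fibroblast markers 163 to 195 and those of 4 endothelial markers 63 to 74.

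The change in the gene set was small and mostly downward. Between DKO and WT, 30 of the 81 tested genes passed edgeR's quasi-likelihood test at an adjusted p under 0.05, or 37.0%, where 45.5% of the 13172 tested protein-coding genes did. Of these, 26 were lower in DKO, or 32.1% against 25.2% of protein-coding genes, and 4 were higher, or 4.94% against 20.3%. With upper quartile scaling in place of TMM factors the split was 10 higher and 23 lower, and with that scaling the median of all protein-coding genes was 0.01 in place of -0.03. The median log2 fold change was -0.08, with quartiles at -0.20 and 0.03, beside -0.03 with quartiles at -0.19 and 0.14 over protein-coding genes. None of the 81 genes changed by over 2-fold, which 3.77% of protein-coding genes did. The DKO libraries lay wholly below the WT libraries for 42 genes, or 51.9% against 39.2% of protein-coding genes, and wholly above them for 18, or 22.2% against 32.4%.

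**Figure D1:**
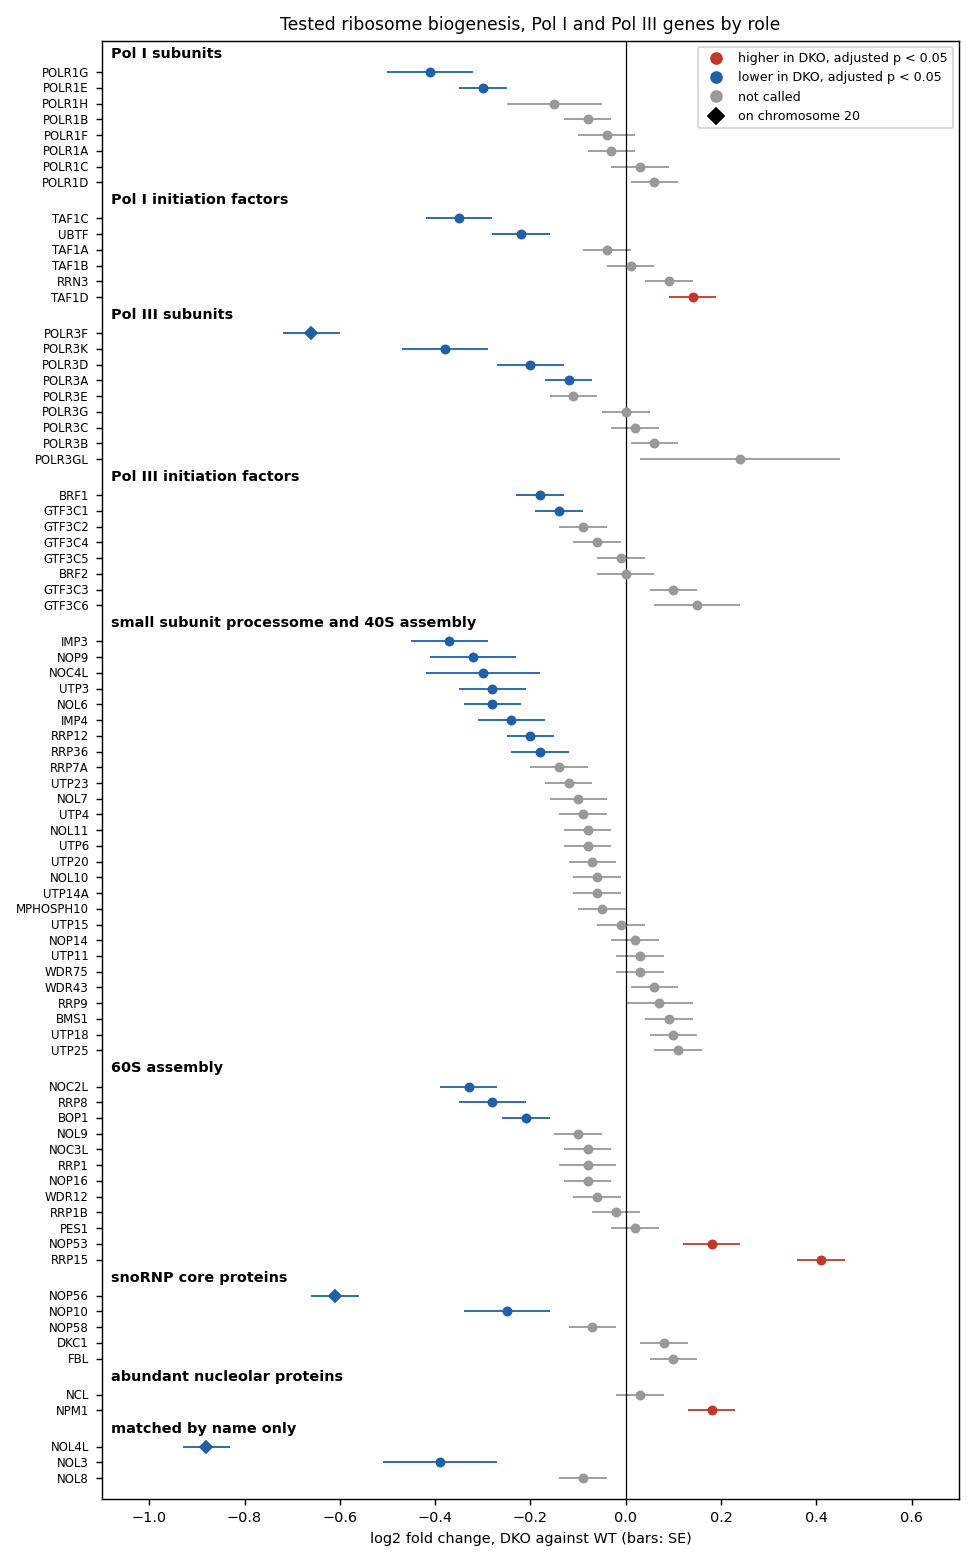
Log2 fold change of DKO against WT for the tested genes reported here, with bars of 1 SE, grouped by role. Blue points passed the test as lower in DKO, red points as higher and grey points did not pass, and diamonds mark genes of chromosome 20, where the lowest points (-0.88, -0.66 and -0.61) lie.

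Each run that left out a library kept 1 library in that group, so a lost call can also reflect the smaller fit. The median log2 fold change of the set was -0.09 and -0.05 without DKO replicate 1 and 2. Without WT replicate 1 and 2 it was -0.08 and -0.06. Without WT replicate 1, POLR3K (-0.37 against -0.38) and BRF1 (-0.18 in both) kept their size. NOL6 (-0.16 against -0.28) and NOC2L (-0.22 against -0.33) changed less in that run. IMP3 passed only narrowly without WT replicate 1 (-0.41) or WT replicate 2 (-0.32). NOL4L, POLR3F, NOP56 and IMP3 were lower and RRP15 was higher in all 4 runs that left out 1 library. The other 25 calls were all lost without WT replicate 1, where 4 genes were lower and 1 was higher, and 17 of the 30 were lost without WT replicate 2, where 12 were lower and 1 was higher. Without DKO replicate 1 there were 27 lower and 3 higher, and without DKO replicate 2 there were 20 lower and 5 higher. Among all protein-coding genes, 826 higher and 783 lower calls were made without WT replicate 1, against 2676 and 3313 with all libraries. No called gene changed its direction in any of these runs. The DKO and WT libraries overlapped for no called gene, so leaving out a library could hardly turn a direction. Another scaling or tool also ended some calls. POLR3A was lost with DESeq2 size factors (adjusted p = 0.0569), upper quartile factors (0.17) and the DESeq2 Wald test (0.127). The Wald test lost RRP36 (0.0642), POLR3D (0.0672), NOC4L (0.232), NOP10 (0.106) and NOL3 (0.103) as well, and upper quartile factors lost NOC4L (0.0675) and GTF3C1 (0.0898). Keeping every gene with a read lost 23 of the 30 calls, with RRP15, RRP8, IMP3, TAF1C, NOP56, POLR3F and NOL4L still called. WT replicate 1 was above WT replicate 2 for 21 of the 26 lower genes (80.8%), against 58.1% of the protein-coding genes called lower. DKO replicate 1 was above DKO replicate 2 for 18 of these 26 genes (69.2%), against 55.7%. Over all 81 tested genes the shares were 56.8% in WT and 76.5% in DKO. The part of this order in the calls was not tested.

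**Figure D2:**
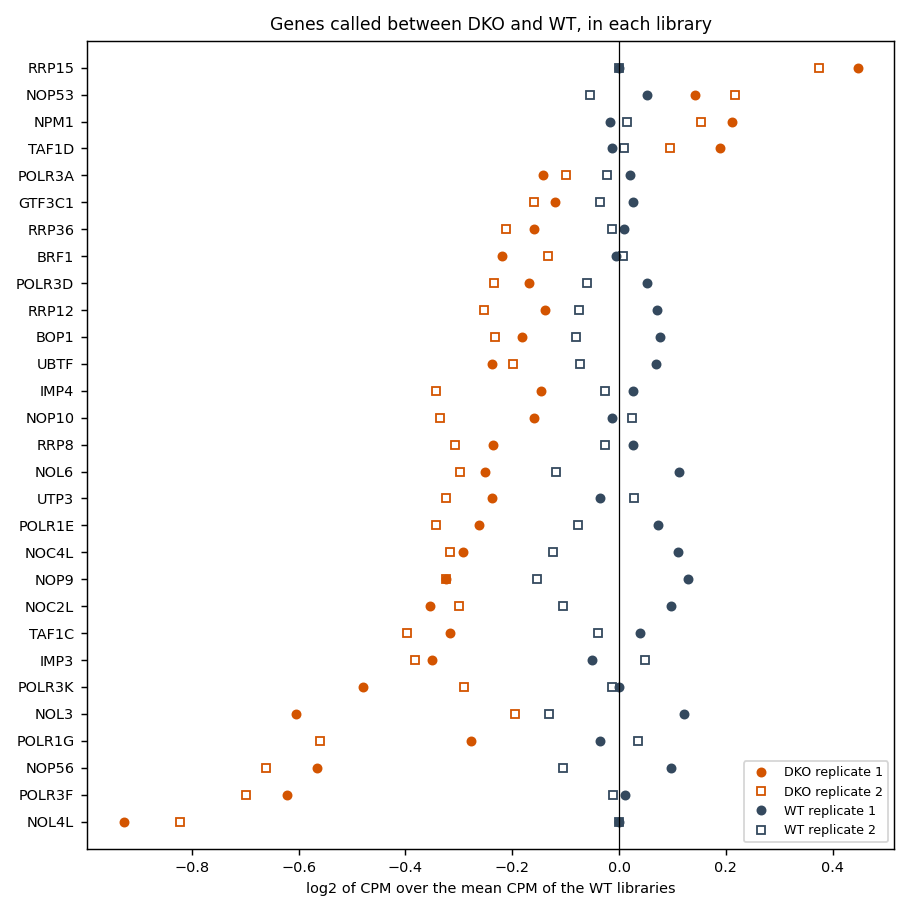
CPM of called genes in each library, as the log2 ratio to the mean of the WT libraries. Orange symbols are DKO and dark symbols are WT, and for every gene shown the orange symbols lie on one side of both dark symbols.

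Promoters of some of these genes are shown for a sequence that the rule did not use and that a part of the set carries. The E-box CACGTG, whose reverse complement has the same letters, occurred in 24 of the 73 promoters found in RefSeq's GRCh38.p14 annotation, or 32.9%, each taken as 250 bases before to 50 after the start. It occurred in 9.84% of the 10757 promoters of tested protein-coding genes and in 7.43% of all 27305 promoters of that length. The letters were in the promoters of 18 of 44 genes that did not pass the test (40.9%), of 5 of 21 that were lower (23.8%) and of none of the 4 that were higher. The difference between these shares was not tested. Of the 250 bases before the start printed here in the direction of transcription, capitals mark each E-box. POLR1G, IMP4 and NOP10 are shown as lower genes with an E-box, and NOP56, POLR3F, IMP3 and RRP15, whose calls held in all 4 runs, as genes without one. They lie at chr19:45406394-45406643 (POLR1G, plus strand), chr2:130342647-130342896 (IMP4, plus), chr15:34343137-34343386 (NOP10, minus), chr20:2652382-2652631 (NOP56, plus), chr20:18467140-18467389 (POLR3F, plus), chr15:75640225-75640474 (IMP3, minus) and chr1:218285043-218285292 (RRP15, plus).
POLR1G: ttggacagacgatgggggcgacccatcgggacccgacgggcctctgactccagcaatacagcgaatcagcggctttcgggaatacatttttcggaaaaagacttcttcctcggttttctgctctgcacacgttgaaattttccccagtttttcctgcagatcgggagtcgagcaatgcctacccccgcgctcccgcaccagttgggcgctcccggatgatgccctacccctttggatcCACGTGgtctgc
IMP4: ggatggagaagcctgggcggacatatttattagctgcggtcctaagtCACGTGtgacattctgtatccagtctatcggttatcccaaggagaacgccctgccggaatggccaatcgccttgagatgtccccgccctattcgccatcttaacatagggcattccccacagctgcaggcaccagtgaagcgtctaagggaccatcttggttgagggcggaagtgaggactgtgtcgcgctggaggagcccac
NOP10: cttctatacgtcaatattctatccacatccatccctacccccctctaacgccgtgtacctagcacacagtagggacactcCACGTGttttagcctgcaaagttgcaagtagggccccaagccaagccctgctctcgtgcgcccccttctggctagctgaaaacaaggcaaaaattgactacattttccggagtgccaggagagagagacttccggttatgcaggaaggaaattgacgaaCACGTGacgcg
NOP56: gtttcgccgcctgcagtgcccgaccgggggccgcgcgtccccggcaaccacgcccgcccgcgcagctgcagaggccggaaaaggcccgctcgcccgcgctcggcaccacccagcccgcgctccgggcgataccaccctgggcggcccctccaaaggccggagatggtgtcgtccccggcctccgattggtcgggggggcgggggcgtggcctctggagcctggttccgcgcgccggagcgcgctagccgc
POLR3F: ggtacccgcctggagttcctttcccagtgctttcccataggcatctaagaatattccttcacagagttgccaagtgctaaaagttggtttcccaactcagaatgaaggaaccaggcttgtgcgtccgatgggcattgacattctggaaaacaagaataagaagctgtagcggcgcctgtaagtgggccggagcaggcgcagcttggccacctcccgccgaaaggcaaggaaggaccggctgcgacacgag
IMP3: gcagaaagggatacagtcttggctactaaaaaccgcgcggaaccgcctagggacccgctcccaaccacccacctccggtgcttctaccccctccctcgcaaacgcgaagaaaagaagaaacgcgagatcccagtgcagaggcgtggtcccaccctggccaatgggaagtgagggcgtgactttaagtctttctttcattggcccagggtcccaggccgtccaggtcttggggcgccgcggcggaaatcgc
RRP15: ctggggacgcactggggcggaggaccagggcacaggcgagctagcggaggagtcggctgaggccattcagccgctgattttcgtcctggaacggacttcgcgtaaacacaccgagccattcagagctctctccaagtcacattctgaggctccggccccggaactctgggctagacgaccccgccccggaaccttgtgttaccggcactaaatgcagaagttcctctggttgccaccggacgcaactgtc
The E-box of POLR1G begins 12 bases before the start, and those of NOP10 begin 170 and 11 bases before it. IMP4 has its first at 203 bases before the start and a further one past the printed stretch. The letters CCGGAAGT, a core bound by ETS factors, were in 11 of the 73 promoters (15.1%) against 8.14% of promoters of tested protein-coding genes. GGGCGG, the GC box bound by Sp1, was in 45 (61.6%) against 69.2%. Both strands were searched for each, and a match describes letters only.

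Of 8 Pol I subunit genes 2 were lower in DKO and none was higher. Counts of this and the following role groups stand beside 25.2% of protein-coding genes lower and 20.3% higher. No role group was tested as a group. POLR1G and POLR1E form the detachable heterodimer of Pol I that acts in initiation and elongation, and both were lower in DKO. POLR1G, at chr19:45406644-45410737, had 9.9 and 8.14 CPM in DKO and 11.7 and 12.3 in WT (-0.41 ± 0.09, adjusted p = 4.16e-05). POLR1E, at chr9:37485948-37503697, had 57.2 and 54.1 CPM in DKO and 72.2 and 65.0 in WT (-0.30 ± 0.05, adjusted p = 2.37e-07). The groups did not overlap for either gene, as for every called gene of the set. Without WT replicate 1 neither passed (adjusted p = 0.112 and 0.0923), and without WT replicate 2 POLR1G did not (0.121). The other 6 subunits lay between -0.15 and 0.06 (adjusted p from 0.164 to 0.713). Among them the catalytic subunit gene POLR1A had 169 and 163 CPM in DKO and 172 and 167 in WT, so its groups overlapped. POLR1B, the second largest subunit, was at -0.08, and POLR1C and POLR1D, which Pol I and Pol III share, were at 0.03 and 0.06.

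Ratios counted within a library do not depend on scaling. The log2 ratio of POLR1E to POLR1A was -1.56 and -1.59 in DKO and -1.25 and -1.36 in WT, a difference of -0.27. That of POLR1G to POLR1A differed by -0.39, and that of POLR1G to POLR1E by -0.12. For the first and second of these ratios the DKO libraries lay below both WT libraries, and for the third the values overlapped (-2.53 and -2.73 against -2.63 and -2.40). These pairs were chosen after their values were seen and were not tested.

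**Figure D3:**
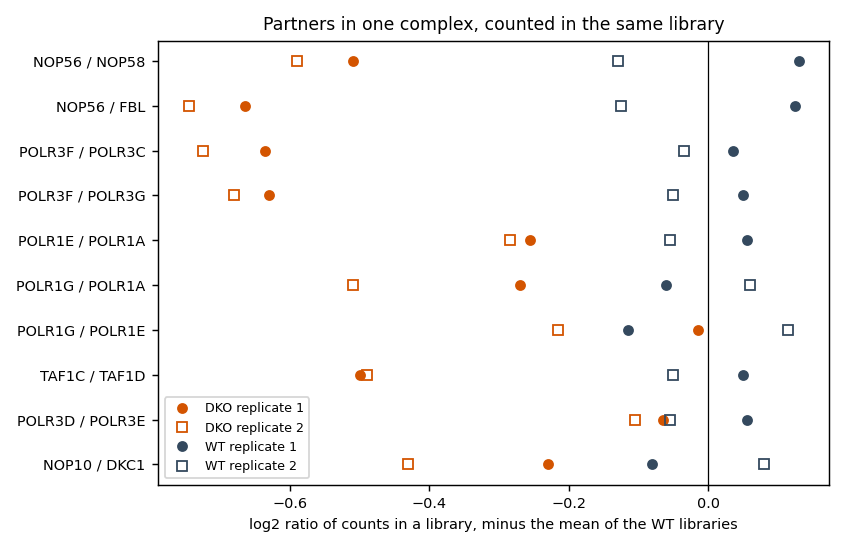
Log2 ratio of the read counts of 2 genes whose products work in 1 complex, in each library, minus the mean of the WT libraries. The DKO libraries lie below both WT libraries for the ratios with NOP56, POLR3F and TAF1C as the first gene, with differences of -0.50 to -0.71, and overlap them for POLR1G against POLR1E. NOP56 and POLR3F lie on chromosome 20, where 86.1% of tested protein-coding genes were called lower in DKO.

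The factors that bring Pol I to the ribosomal DNA moved in both directions. TAF1A, TAF1B, TAF1C and TAF1D are parts of selectivity factor SL1, which recognises the promoter together with TBP. TAF1C had 14.7 and 13.9 CPM in DKO and 18.8 and 17.8 in WT (-0.35 ± 0.07, adjusted p = 3.36e-05). TAF1D had 498 and 467 CPM in DKO and 433 and 440 in WT (0.14 ± 0.05, adjusted p = 0.0138). The groups did not overlap for either gene, and within a library the log2 ratio of TAF1C to TAF1D was -5.08 and -5.07 in DKO and -4.53 and -4.63 in WT. TAF1A (-0.04) and TAF1B (0.01) did not pass. UBTF encodes UBF, the architectural protein that keeps active ribosomal DNA open. It had 32.4 and 33.3 CPM in DKO and 40.1 and 36.3 in WT (-0.22 ± 0.06, adjusted p = 0.00134). RRN3, the factor that makes Pol I competent to start, was at 0.09 ± 0.05 (adjusted p = 0.115). Without WT replicate 1 TAF1C (adjusted p = 0.0773), UBTF (0.187) and TAF1D (0.259) missed the threshold, and TAF1D also missed it without WT replicate 2 (0.178) and without DKO replicate 1 (0.145).

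Pol III subunit genes had a median of -0.12, and none was higher. POLR3F, at chr20:18467390-18484646, encodes 1 of the 3 subunits of the detachable subcomplex used in initiation. It had 33.0 and 31.3 CPM in DKO and 51.2 and 50.4 in WT (-0.66 ± 0.06, adjusted p = 8.12e-23). Its partners in that subcomplex did not pass: POLR3C was at 0.02 ± 0.05 (adjusted p = 0.804) and POLR3G at 0.00 ± 0.05 (adjusted p = 0.988). The log2 ratio of POLR3F to POLR3C was -0.55 and -0.64 in DKO and 0.12 and 0.05 in WT. POLR3F thus changed unequally to both partners, and its groups lay far apart relative to their spread. Unlike both partners it lies on chromosome 20, whose tested protein-coding genes had a median of -0.62. The part of the chromosome in this difference was not tested.

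POLR3K, POLR3D and POLR3A were lower too. POLR3K, a small subunit for RNA cleavage and termination, had 7.53 and 8.59 CPM in DKO and 10.5 and 10.4 in WT (-0.38 ± 0.09, adjusted p = 0.000293). POLR3D, which pairs with POLR3E, was at -0.20 ± 0.07 (adjusted p = 0.00899), and POLR3E itself at -0.11 ± 0.05 (adjusted p = 0.0586). The log2 ratio of POLR3D to POLR3E was -1.51 and -1.55 in DKO and -1.39 and -1.50 in WT, so the nearest libraries of the groups almost touched. Of the catalytic core, POLR3A was at -0.12 ± 0.05 (adjusted p = 0.0381) and POLR3B at 0.06 ± 0.05 (adjusted p = 0.314). Without WT replicate 1 the calls of POLR3K, POLR3D and POLR3A were lost (adjusted p from 0.114 for POLR3K to 0.275 for POLR3A). Without WT replicate 2 POLR3K (0.0758), POLR3D (0.065) and POLR3A (0.138) missed it, as did POLR3A without DKO replicate 1 (0.156) and POLR3D without DKO replicate 2 (0.0899).

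Among 8 Pol III initiation factors 2 were lower and none was higher, with a median of -0.03. BRF1, the TFIIIB subunit for transfer RNA and short ribosomal RNA genes, had 68.2 and 72.4 CPM in DKO and 79.1 and 79.8 in WT (-0.18 ± 0.05, adjusted p = 0.00193). GTF3C1, the largest subunit of TFIIIC, had 149 and 145 CPM in DKO and 165 and 158 in WT (-0.14 ± 0.05, adjusted p = 0.0119). Both passed, and as for every called gene of the set their groups did not overlap. BRF2, which replaces BRF1 at genes such as that of the U6 RNA, was at 0.00 ± 0.06, and the other 5 TFIIIC genes lay between -0.09 and 0.15. Both calls were lost without WT replicate 1 (adjusted p = 0.133 for BRF1 and 0.248 for GTF3C1) and without WT replicate 2 (0.123 and 0.0963), and GTF3C1 was lost without DKO replicate 2 (0.0688).

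Paralogs that serve as alternatives were compared by their ratio within a library. The log2 ratio of BRF1 to BRF2 was 1.16 and 1.37 in DKO and 1.46 and 1.42 in WT, a difference of -0.17. POLR3G, the form of stem and cancer cells, stood far above POLR3GL, the form of most tissues, with ratios of 6.18 and 6.06 in DKO and 6.48 and 6.25 in WT. Both ratios were lower in both DKO libraries. For each the exact two-sided permutation test gave p = 0.333, the smallest that 6 splits of 4 libraries allow, or 0.5 after adjustment over the 3 pairs tested. POLR3GL had only 45 to 63 reads per library. RRP1 and its paralog RRP1B differed by -0.06 with overlapping groups (exact permutation p = 1). UTP14C, the retrocopy of UTP14A, had no read in any library and gives no ratio.

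Small subunit genes were the largest group, and 8 of 27 tested were lower and none higher, with a median of -0.08. Of all tested protein-coding genes 25.2% were lower and 20.3% higher. The processome is the large particle that folds and cuts the 18S part of the precursor, and the lowest adjusted p values in this group were those of IMP3, NOL6 and UTP3. IMP3, at chr15:75639093-75640224, joins the U3 snoRNA with MPHOSPH10 and IMP4. It had 13.5 and 13.2 CPM in DKO and 16.6 and 17.8 in WT (-0.37 ± 0.08, adjusted p = 2.53e-05). IMP4 had 20.5 and 17.9 CPM in DKO and 23.1 and 22.3 in WT (-0.24 ± 0.07, adjusted p = 0.00226), while MPHOSPH10 was at -0.05 ± 0.05 (adjusted p = 0.43). So the groups of IMP3 and IMP4 lay apart and those of MPHOSPH10 overlapped.

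NOL6, a scaffold protein that works with RRP7A, had 28.0 and 27.1 CPM in DKO and 36.0 and 30.7 in WT (-0.28 ± 0.06, adjusted p = 9.9e-05). UTP3 had 17.3 and 16.3 CPM in DKO and 19.9 and 20.8 in WT (-0.28 ± 0.07, adjusted p = 0.000721). The processome and export factors NOP9 (-0.32), NOC4L (-0.30), RRP12 (-0.20) and RRP36 (-0.18) were also lower. The other 19 tested genes of the group, among them UTP4, UTP15, UTP20, WDR43, WDR75, NOP14 and BMS1, lay between -0.14 and 0.11 (adjusted p from 0.0618 to 0.945). Without WT replicate 1 all calls of the group but that of IMP3 were lost (adjusted p from 0.0732 for UTP3 to 0.344 for NOC4L). Without WT replicate 2, UTP3 (0.0923), IMP4 (0.126), NOC4L (0.0703), RRP12 (0.0599) and RRP36 (0.102) were lost. NOC4L was lost without either DKO library too (0.0835 and 0.114), and IMP4 (0.16) and RRP36 (0.0871) without DKO replicate 2.

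NOC4L shares its promoter region with a large subunit gene. It starts 138 bases from the start of DDX51, a helicase gene transcribed the other way, and DDX51 was lower to the same degree (-0.29 ± 0.10, adjusted p = 0.0171, against -0.30 ± 0.12, adjusted p = 0.0364, for NOC4L). The log2 ratio of NOC4L to DDX51 was -0.72 and -0.70 in DKO and -0.63 and -0.77 in WT, which overlap. DDX51 also missed the threshold without WT replicate 1 (0.179), WT replicate 2 (0.082) or DKO replicate 2 (0.0857). The 250 bases before the NOC4L start at chr12:132144207-132144456, plus strand, are printed with the stretch between both genes in capitals.
NOC4L: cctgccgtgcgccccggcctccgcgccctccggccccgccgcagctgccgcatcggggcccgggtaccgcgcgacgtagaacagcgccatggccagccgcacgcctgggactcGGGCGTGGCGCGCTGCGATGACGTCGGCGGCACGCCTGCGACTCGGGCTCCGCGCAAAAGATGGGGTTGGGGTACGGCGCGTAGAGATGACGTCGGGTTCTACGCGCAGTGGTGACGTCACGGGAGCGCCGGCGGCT

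Among large subunit factors 3 of 12 tested were lower and 2 higher. RRP15, at chr1:218285293-218337983, acts in early 60S particles. It had 184 and 175 CPM in DKO and 135 and 135 in WT (0.41 ± 0.05, adjusted p = 1.8e-14), the largest rise of the set, and it was higher in all 4 runs that left out a library. NOP53, which brings the exosome to pre-60S particles, had 39.3 and 41.4 CPM in DKO and 36.9 and 34.3 in WT (0.18 ± 0.06, adjusted p = 0.00703). NOC2L had 23.4 and 24.3 CPM in DKO and 32.0 and 27.8 in WT (-0.33 ± 0.06, adjusted p = 7.61e-06). These groups lay apart in opposite directions.

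RRP8, a methyltransferase for large subunit RNA, had 18.6 and 17.7 CPM in DKO and 22.3 and 21.5 in WT (-0.28 ± 0.07, adjusted p = 0.000553). BOP1 had 53.8 and 51.9 CPM in DKO and 64.3 and 57.7 in WT (-0.21 ± 0.05, adjusted p = 0.000551). It forms the PeBoW complex with PES1 (0.02 ± 0.05, adjusted p = 0.764) and WDR12 (-0.06 ± 0.05, adjusted p = 0.376), which did not pass. All 7 large subunit genes that did not pass, PES1 and WDR12 included, lay between -0.10 and 0.02. Without WT replicate 1, NOC2L (adjusted p = 0.102), RRP8 (0.0986), BOP1 (0.208) and NOP53 (0.0944) were lost. RRP8 (0.0507) and NOP53 (0.238) were lost without WT replicate 2, and NOP53 without DKO replicate 2 (0.094).

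Of the snoRNP core genes, 1 member of each class was lower. NOP56, at chr20:2652632-2658393, belongs with NOP58 and the methyltransferase fibrillarin (FBL) to the box C/D particles that guide methylation. It had 125 and 117 CPM in DKO and 198 and 172 in WT (-0.61 ± 0.05, adjusted p = 8.07e-26). NOP58 was at -0.07 ± 0.05 (adjusted p = 0.295) and FBL at 0.10 ± 0.05 (adjusted p = 0.132). The log2 ratio of NOP56 to NOP58 was -1.32 and -1.40 in DKO and -0.68 and -0.94 in WT. The balance of reads between these partners thus shifted by -0.55. NOP56 lies on chromosome 20, which was lower in DKO as a whole, and NOP58 does not. NOP10, a small protein of the box H/ACA particles that guide pseudouridylation, had 10.3 and 9.11 CPM in DKO and 11.4 and 11.7 in WT (-0.25 ± 0.09, adjusted p = 0.0137). DKC1, the pseudouridine synthase of these particles, was at 0.08 ± 0.05 (adjusted p = 0.257). The call of NOP10 was lost without WT replicate 1 (0.167), WT replicate 2 (0.195) or DKO replicate 2 (0.222).

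The abundant nucleolar proteins nucleophosmin and nucleolin are encoded by NPM1 and NCL. NPM1 had 673 and 646 CPM in DKO and 574 and 587 in WT (0.18 ± 0.05, adjusted p = 0.00181), with groups that did not overlap, but missed the threshold without WT replicate 1 (0.159) or WT replicate 2 (0.0987). NCL had 267 and 264 CPM in DKO and 268 and 253 in WT, and its groups overlapped (0.03 ± 0.05, adjusted p = 0.648). NPM1 has many processed copies in the genome that could take or give reads, so its value is uncertain.

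A further 4 genes bear NOL symbols but were assigned no step of ribosome assembly here, and form the group matched by name only. The role groups follow general knowledge, and NOL8 could be placed in another. NOL4L, at chr20:32443059-32585333, had 71.5 and 76.9 CPM in DKO and 136 and 136 in WT (-0.88 ± 0.05, adjusted p = 2.2e-42), the largest change of the set. NOL3, which encodes a repressor of apoptosis, had 3.68 and 4.89 CPM in DKO and 6.09 and 5.11 in WT (-0.39 ± 0.12, adjusted p = 0.00379), and missed the threshold without DKO replicate 1 (0.27), WT replicate 1 (0.43) or WT replicate 2 (0.12). NOL8 was at -0.09 ± 0.05 (adjusted p = 0.143). Without these genes the counts were 24 lower and 4 higher and the median was -0.07.

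The largest falls of the set, NOL4L, POLR3F and NOP56, are its 3 genes on chromosome 20. That chromosome was lower in DKO as a whole: the median log2 fold change of its 360 tested protein-coding genes was -0.62, with quartiles at -0.77 and -0.45, and 310 of them (86.1%) were called lower and 9 higher. On all other chromosomes the median was -0.02 and 23.4% were called lower. NOP56 (-0.61) and POLR3F (-0.66) thus lay within the middle range of their chromosome, while NOL4L (-0.88) was below its lower quartile. The part of the chromosome in these values was not tested. Off chromosome 20, 23 of 78 tested genes were lower (29.5%) and 4 higher, with a median of -0.07. Of 7 genes on chromosome 16, 4 were lower, where 32.8% of that chromosome's protein-coding genes were, and of 13 genes on chromosome 2 only IMP4 was, or 7.69% against 17.5%.

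The shortest genes of the set were lower most often, and the longer classes showed no steady order. Among genes that span under 10 kb in RefSeq, 13 of 19 were lower (68.4%) and none higher, with a median of -0.25. Of protein-coding genes of that span 31.1% were lower and 10.6% higher, with a median of -0.12. From 10 to 20 kb 6 of 19 were lower and 2 higher, from 20 to 40 kb 2 of 25 were lower and 1 higher, and from 40 kb on 5 of 18 were lower and 1 higher. The shares of protein-coding genes called lower in these classes were 32%, 26.3% and 20%, and those called higher 11.4%, 16% and 28.9%. The short genes that were lower are IMP3, NOP10, UTP3, POLR1G, IMP4, NOL3, NOP56, POLR3K, RRP36, NOC4L, RRP8, TAF1C and POLR3D, and those that did not pass are NOP16, POLR1H, BRF2, UTP23, RRP9 and GTF3C6. Read number moved with span: the median was 972 reads per library under 10 kb, then 2202, 4120 and 5750. Across the 81 genes Spearman's rho of log2 fold change was 0.30 with span and 0.42 with log2 CPM, and across protein-coding genes 0.25 and 0.07. These describe genes of the same 4 libraries, which are not independent replicates. The classes of span were chosen after values were seen, and neither span nor read number was tested as a source of the change.

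**Figure D4:**
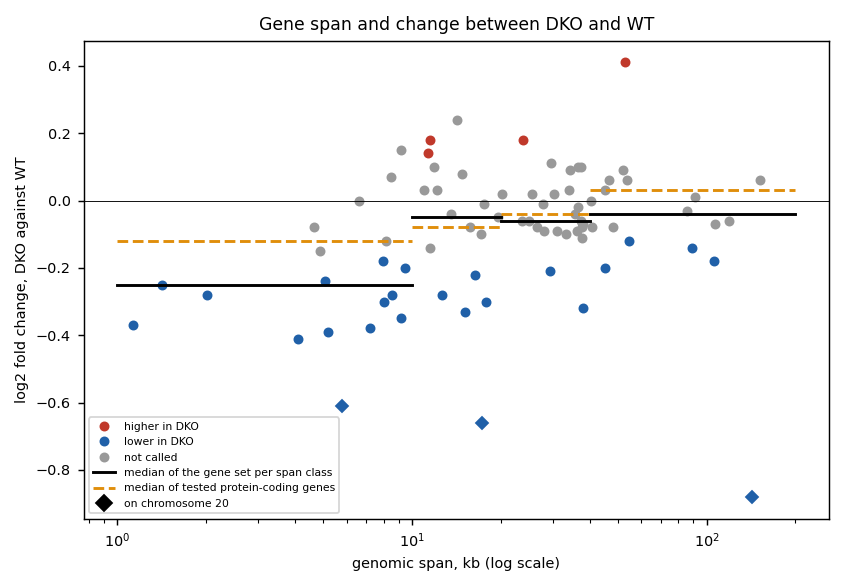
Log2 fold change of DKO against WT by genomic span in kb (log scale) for tested genes of the set, coloured by call. Black lines are the medians of the set in 4 span classes and dashed lines those of all tested protein-coding genes, and under 10 kb the former lie at -0.25 and the latter at -0.12.

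Genes that the name rule leaves out were read from lists of the same pathways. Over 133 tested genes in 5 lists 17 were higher (12.8%) and 28 lower (21.1%), with a median of -0.03, beside 20.3%, 25.2% and -0.03 over all protein-coding genes. For Pol I and Pol III, 6 of 23 genes were lower and 3 higher. CRCP, a subunit of the Pol III stalk, had 8.75 and 8.27 CPM in DKO and 11.9 and 11.8 in WT (-0.48 ± 0.09, adjusted p = 1.63e-06), and it was lower in all 4 runs that left out a library. SIRT7, a deacetylase that acts on Pol I (-0.30 ± 0.07), and POLR2F, a subunit shared by all nuclear RNA polymerases (-0.29 ± 0.06), followed, as did the shared subunits POLR2L (-0.24) and POLR2H (-0.23) and SNAPC4 (-0.17). SNAPC1 of the complex at small nuclear RNA promoters (0.31 ± 0.07), MYC (0.30 ± 0.05) and POU2F1 (0.20 ± 0.05) were higher. MYC had 165 and 140 CPM in DKO and 123 and 124 in WT, and did not pass when WT replicate 1 (adjusted p = 0.162) or WT replicate 2 (0.116) was left out. SNAPC4 was at 0.00 without WT replicate 1, and its groups overlapped.

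In the assembly lists, chromosome 20 genes again led the falls. Of 35 tested genes in the small subunit list 7 were higher and 6 lower. ESF1, on chromosome 20, had 236 and 224 CPM in DKO and 313 and 339 in WT (-0.50 ± 0.05, adjusted p = 5.60e-19), ahead of RRS1 (-0.47 ± 0.11), which this list holds although its product acts in large subunit assembly, and the 18S RNA modifying gene TSR3 (-0.38 ± 0.14). KRR1 (0.21 ± 0.05), LTV1 (0.19 ± 0.05) and DDX10 (0.18 ± 0.05) rose. For the large subunit 12 of 49 were lower and 4 higher. The helicase gene DDX27, on chromosome 20, had 38.4 and 39.1 CPM in DKO and 61.6 and 57.5 in WT (-0.62 ± 0.05, adjusted p = 4.93e-22). EIF6, which keeps new 60S subunits from joining 40S and lies on the same chromosome, was at -0.45 ± 0.06 (adjusted p = 3.36e-11). RPF1 had 101 and 97.5 CPM in DKO and 70.3 and 71.7 in WT (0.49 ± 0.05, adjusted p = 7.09e-18), and EFL1, which removes EIF6 (0.29 ± 0.05), and RSL24D1 (0.25 ± 0.05) rose too.

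Among 13 snoRNP assembly genes RUVBL1 was higher (0.22 ± 0.05) and its partner in that pathway PIH1D1 lower (-0.42 ± 0.09). Of 13 tested RNA exosome genes 3 were lower, EXOSC1 (-0.42 ± 0.08), EXOSC6 (-0.19 ± 0.08) and EXOSC2 (-0.18 ± 0.05), and the helicase gene MTREX (0.14 ± 0.05) and C1D (0.13 ± 0.05) were higher. DDX27, ESF1, CRCP, EIF6 and RPF1 were called in all 4 runs that left out a library. The other 40 of the 45 calls in these lists were lost without WT replicate 1, and 31 were lost without WT replicate 2. Without chromosome 20 genes the lists had 29 lower and 16 higher.

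Products of Pol I and Pol III are read only in part by these libraries. Of 19 Pol III products found 9 were tested, 2 were higher and 2 lower. Over all 19103 tested genes, protein-coding or not, 3632 were higher and 4025 lower. Whether the products differ from all genes in these shares was not tested. The vault RNA gene VTRNA1-3 had 560 and 509 reads in DKO and 391 and 310 in WT (0.56 ± 0.10, adjusted p = 2.02e-07). RNU6-1, 1 of several near-identical U6 genes, had 46 and 31 reads against 21 and 12 (1.17 ± 0.31, adjusted p = 0.00093). RN7SL1, the RNA of the signal recognition particle, was at -0.20 ± 0.05 (adjusted p = 0.000202), and the minor spliceosome gene RNU6ATAC at -0.54 ± 0.17 (adjusted p = 0.00585). For each of them the DKO and WT libraries did not overlap in CPM. With a library left out, VTRNA1-3 missed the threshold without WT replicate 2, and RN7SL1 missed it without WT replicate 1 or WT replicate 2. RNU6-1 passed only without DKO replicate 2, and RNU6ATAC only without DKO replicate 1. RN7SK, RN7SL2, RMRP, RPPH1 and RNU6-7 are listed at 0 in all libraries, as are the 3 ribosomal RNA genes found, so Pol I output cannot be read here. These RNAs come in repeated or near-identical copies, and a listed 0 does not show that they were not made.

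Some genes of the set held few or no reads or overlap a neighbour, and the part of read assignment in their counts was not tested. UTP14C lies wholly inside ALG11 on the same strand and had 0 reads where ALG11 had 1847 to 1971. NOP2 had 1 to 3 reads per library, NOL12 3 to 7 and NOL4 1 to 11, so these 4 genes were not tested. All 26 snoRNA genes inside 8 of the genes, among them 5 in NOP56 and 8 in TAF1D, were at 0. Genes covered by a neighbour on the opposite strand held reads. NOP16, wholly inside ARL10, had 2422 to 2749, and RRN3, wholly inside PDXDC1, had 4981 to 5651. POLR1G, overlapped over 83.1% of its span by ERCC1, had 434 to 629. POLR1C, overlapped over 88.4% by XPO5, had 1729 to 1943, and NOL7, overlapped over 64% by RANBP9, had 1778 to 1955. POLR1H, overlapped on the same strand by PPP1R11 over 75.2% of its span, had 380 to 446 reads. The strand setting is not given in the sources used here, so values of genes with overlap on either strand are uncertain.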

How the data were processed

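Nascent RNA of HCT116 cells was counted in 2 DKO and 2 WT libraries, grouped by their titles. Each deposited file lists 1 library's unnormalised counts by Ensembl identifier. The submitters' processing notes name STAR 2.7.3a, featureCounts 1.6 and build hg38. For the gene set version, strand setting and counted features, the sources used here give nothing. Values are relative to library totals, without a spike-in. Symbols were found for 42020 of 60656 identifiers and RefSeq spans for 40455, in the GRCh38.p14 annotation, which also gave the promoter sequences. No genome sequence was used.

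Genes were tested in R 4.3.3 by edgeR 4.0.16 (glmQLFit and glmQLFTest, group as sole term) after TMM scaling and filterByExpr, whose defaults are a minimum count of 10 and a minimum total of 15. Benjamini-Hochberg adjustment ran over all 19103 tested genes, and a gene was called at an adjusted p under 0.05. The SE is the log2 fold change divided by the square root of F. CPM uses TMM-scaled library sizes. The biological coefficient of variation was 3.46%. Alternatives were DESeq2 1.42.0 size factors and its Wald test, total counts, upper quartile factors, limma 3.58.1 voom, keeping every gene with a read, a floor of 50 reads in 2 libraries, the replicate number as a block, each library left out in turn, and sets without chromosome 20 or without the genes matched by name only. With a library left out, the spread of the lone one is taken from the other group. Scripts were tested on simulated data.

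Genes and lists were chosen with earlier results of these data known. Values per library are given for up to 3 called genes with the lowest adjusted p in each role and direction, for the largest change of a role and for paralogs, and of each related list up to 3 called genes with the largest change in each direction are named. Genes, ratios and span classes beyond this rule were chosen after their values were seen. The values of 1 tested gene of the set are not reported here, though it enters the counts and medians. Figures were drawn with matplotlib 3.10.9.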

Additional observations from a re-analysis of the deposited data

How the results depend on the processing

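The 30 single calls kept their direction under the 12 alternatives refitted for single genes. For the runs that left out a library this follows from groups that did not overlap. The called set stayed at 20 to 26 lower and 4 or 5 higher under DESeq2 size factors, total counts, the floor of 50 reads, the Wald test, voom and the sets without chromosome 20 or name-only genes. Upper quartile factors gave 10 higher and a median of -0.04. Keeping every gene with a read gave 6 lower and 1 higher, and for related genes 6 lower and 6 higher. In that fit 16652 protein-coding genes were tested, of which 1306 were higher and 1398 lower. The Wald test gave 15 related genes lower. Leaving out 1 library gave 4 to 27 lower and 1 to 5 higher, and for related genes 4 to 27 lower and 1 to 19 higher, with fewer samples in the fit. The cause of these differences was not tested. The ratio of RRP1 to RRP1B ranged from -0.15 to 0.04, the latter without WT replicate 1. The deviations of same-numbered libraries had a correlation of 0.00, which does not show what these libraries share. With the replicate number as a block 26 were lower and 5 higher, and 30 and 17 of the related genes. Genes with few reads, such as POLR3GL, NOC4L and NOL3, had an SE over 0.1. NOC4L and NOL3 still passed at -0.30 and -0.39, while POLR3GL at 0.24 did not.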

Other observations

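Several of these genes start close to a gene transcribed the other way. A search of RefSeq starts within 1000 bases upstream found 17 such pairs in which both genes were tested. For 7 of them the ribosome or polymerase gene was lower in DKO, and in 4 of these the neighbour was lower as well and in none higher, where 25.2% of all tested protein-coding genes were lower and 20.3% higher. POLR3K (-0.38) starts 220 bases from SNRNP25, a gene of the minor spliceosome, which was at -0.47 ± 0.16 (adjusted p = 0.0137). RRP8 (-0.28) starts 158 bases from ILK, the integrin-linked kinase gene, which was at -0.28 ± 0.10 (adjusted p = 0.0136). POLR3F (-0.66) starts 360 bases from DZANK1 on the same low chromosome, which was at -0.80 ± 0.08 (adjusted p = 6.23e-19), and NOC4L with DDX51 is the fourth pair. KATNIP beside GTF3C1 (0.03), VMA22 beside IMP4 (-0.16) and PPP1R13L beside POLR1G (-0.03) did not pass the test. Of 10 pairs whose ribosome or polymerase gene was not called, 3 had a called neighbour: CENPP beside NOL8 was lower (-0.17), and ANKRD34A beside POLR3GL (0.87) and ANKRA2 beside UTP15 (0.25) were higher. The search was added after the values were seen, no neighbour but DDX51 is given with libraries left out, and the pairs were not tested as a group.

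RRP15, the largest rise of the set, lies 7.35 kb from TGFB2, the gene of a secreted growth factor, which rose by 1.94 ± 0.05 on the log2 scale (adjusted p = 2.42e-89). NOP53, which also rose, lies 2.41 kb from EHD2 (-0.65 ± 0.08) and 21.6 kb from SELENOW (-0.68 ± 0.08), both lower in DKO. The part of the neighbours in the values of RRP15 and NOP53 was not tested.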
